A study of Mus musculus with 23 samples.

Results

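The genes described are 8 of the 27178 in the table: the receptors Gpr101, Glp1r, Calcr and Crhr2, the neuropeptide precursor Nts, the transcription factors Zic1 and Zic4, and the ion channel Trpc4. They were picked by symbol, with earlier results of these same libraries in view, as genes of the septum and other subcortical regions. Which of the values led to the choice is not recorded, so their levels, differences and relations to each other are given as a description. Of the 8 genes, 7 reached a normalized count of 10 in 5 or more libraries and were among the 16385 genes tested, and Calcr, which reached 10 in 4 libraries, was not. Most of them were high in a few libraries of 3 groups, and none of the 8 libraries labelled GFP stress was among the 5 highest for any of them.

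The septum is a set of nuclei beside the midline of the forebrain, behind and below the frontal cortex, that connects the hippocampus with the hypothalamus. Its lateral part is built largely of inhibitory neurons that use neuropeptides and carry many peptide receptors, among them Glp1r and Crhr2, while Zic genes mark the medial forebrain from early development and stay active in septal neurons. Glp1r, Calcr and Crhr2 belong to the secretin family of peptide receptors, which like Gpr101 act mainly through the stimulatory G protein and cyclic AMP. A pair of comparison genes marks neighbouring tissue: Ppp1r1b, an inhibitor of a protein phosphatase that is abundant in medium spiny neurons of the striatum, and Ttr, the transthyretin gene, abundant in the choroid plexus of the ventricles.

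Bulk RNA sequencing of polyadenylated RNA was carried out on 23 libraries of orbitofrontal cortex (OFC) from wild-type male C57BL/6J mice, with age given as 8 weeks. All mice received an AAV6 vector in the OFC on day 0, which carried either GFP or ZBTB7A, a zinc-finger transcription factor, behind the GFAP promoter, which is active mainly in astrocytes. On day 21 they went through a subthreshold social defeat stress or a control condition, then through behavioural tests on days 22 to 27 (forced swim, sucrose preference and social interaction), and infected tissue was dissected on day 28. This made 5 libraries of GFP control, 8 of GFP stress, 5 of ZBTB7A control and 5 of ZBTB7A stress. A library is named by its group and title number, and the numbers run through the 4 groups 3 times, in runs of 8, 7 and 8 libraries. No label says that the libraries come from separate mice, so p-values measure the spread between these libraries, which may in part be technical.

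The libraries held 12.5 to 51.9 M reads, and 1 read was worth 0.457 to 1.75 normalized counts. Zbtb7a itself, the gene named for the vector, was at 3033 to 4666 normalized counts under GFP without stress and 3681 to 4329.8 with it, and at 3357 to 3955 and 3470.1 to 3899 in the libraries labelled ZBTB7A, so it was not higher in the latter. Whether reads from the vector count toward the mouse gene is not given in the sources used here, and the ZBTB7A groups are named by their labels throughout. Markers of cortical excitatory neurons were present in every library (Slc17a7, the vesicular glutamate transporter of cortical neurons, at 10938 to 57296 normalized counts). ZBTB7A control 6 stood apart, with the lowest Slc17a7 count and the highest Ppp1r1b count, 53879, of the 23 libraries.

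The stretches around the start sites of 5 of the genes are shown because these 5 had the largest fitted differences for stress under GFP among the 7 genes tested. Each is the RefSeq promoter window of assembly GRCm38.p6, from 250 bases before to 50 bases after the gene's start, written 5′ to 3′ on the gene's own strand, with matches to 6 short promoter motifs in capitals. All 8 genes had at least 1 such window, 9 windows in all, and these were matched by symbol. Zic1 lies on the minus strand (chr9:91365719-91366018) and Zic4 on the plus strand (chr9:91368722-91369021), so the neighbours are read in opposite directions. The Zic4 window belongs to a start that lies inside the gene's RefSeq span, not at its first base. Gpr101 lies on the minus strand (chrX:57503708-57504007), Glp1r on the plus strand (chr17:30901617-30901916) and Nts on the minus strand (chr10:102490369-102490668).
Gpr101: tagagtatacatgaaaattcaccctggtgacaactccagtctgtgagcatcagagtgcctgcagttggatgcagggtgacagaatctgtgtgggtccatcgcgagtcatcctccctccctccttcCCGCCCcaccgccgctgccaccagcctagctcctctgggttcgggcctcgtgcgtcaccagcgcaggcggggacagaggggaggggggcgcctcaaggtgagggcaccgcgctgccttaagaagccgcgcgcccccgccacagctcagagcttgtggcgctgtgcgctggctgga
Glp1r: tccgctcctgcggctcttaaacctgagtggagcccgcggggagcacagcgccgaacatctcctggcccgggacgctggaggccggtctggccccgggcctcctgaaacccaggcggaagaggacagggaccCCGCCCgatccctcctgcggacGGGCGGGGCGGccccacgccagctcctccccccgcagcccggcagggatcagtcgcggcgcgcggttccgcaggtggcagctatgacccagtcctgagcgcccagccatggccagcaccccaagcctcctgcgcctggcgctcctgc
Nts: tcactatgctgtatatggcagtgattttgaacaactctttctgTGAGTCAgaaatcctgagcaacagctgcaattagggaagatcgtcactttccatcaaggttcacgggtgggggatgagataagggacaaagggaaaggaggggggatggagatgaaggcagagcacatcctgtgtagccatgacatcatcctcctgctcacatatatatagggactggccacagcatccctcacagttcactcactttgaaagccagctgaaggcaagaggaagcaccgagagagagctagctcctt
Zic1: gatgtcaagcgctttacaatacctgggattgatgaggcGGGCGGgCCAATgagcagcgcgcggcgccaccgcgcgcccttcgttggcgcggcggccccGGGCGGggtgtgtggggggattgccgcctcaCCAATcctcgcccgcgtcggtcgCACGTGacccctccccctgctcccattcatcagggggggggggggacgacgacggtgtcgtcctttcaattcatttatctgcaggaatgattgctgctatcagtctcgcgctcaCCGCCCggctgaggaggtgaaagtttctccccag
Zic4: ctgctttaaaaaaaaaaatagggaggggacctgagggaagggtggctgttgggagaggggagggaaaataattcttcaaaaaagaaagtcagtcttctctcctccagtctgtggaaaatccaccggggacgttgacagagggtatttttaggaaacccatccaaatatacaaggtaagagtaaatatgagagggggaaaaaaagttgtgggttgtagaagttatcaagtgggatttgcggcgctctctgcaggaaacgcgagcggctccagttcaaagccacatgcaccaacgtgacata

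The 6 motifs were searched on both strands: the cyclic AMP response element TGACGTCA, the AP-1 element TGAGTCA, the TATA box TATAAA, the CCAAT box CCAAT, the GC box GGGCGG and the E-box CACGTG. The letters of no motif contain those of another, and 2 of the GC box matches in Glp1r share 1 base. The capitals in Gpr101 and Glp1r are GC boxes, the capitals in Nts are an AP-1 element that begins 207 bases before the start, and Zic1 holds GC boxes, CCAAT boxes and an E-box, while Zic4 holds none of the 6. Of 32851 promoter windows of the same length, 5.20% held the AP-1 element, 35.7% a GC box, 37.4% a CCAAT box and 7.15% an E-box. The cyclic AMP response element, found in 1.79% of all windows, was in 0 of the 9 windows. GC boxes were in windows of 5 of the 8 genes, Gpr101, Glp1r, Zic1, Trpc4 and Calcr, and a TATA box, found in 13.6% of all windows, was in those of Trpc4 and Crhr2. The 5 windows also differed in base composition, with 65.3% G and C in Zic1 against 46% in Zic4, 49% in Nts and 73.7% in Glp1r, where the median of all windows was 52.7%. A match is a stretch of letters and no evidence that a factor binds there.

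**Figure D1:**
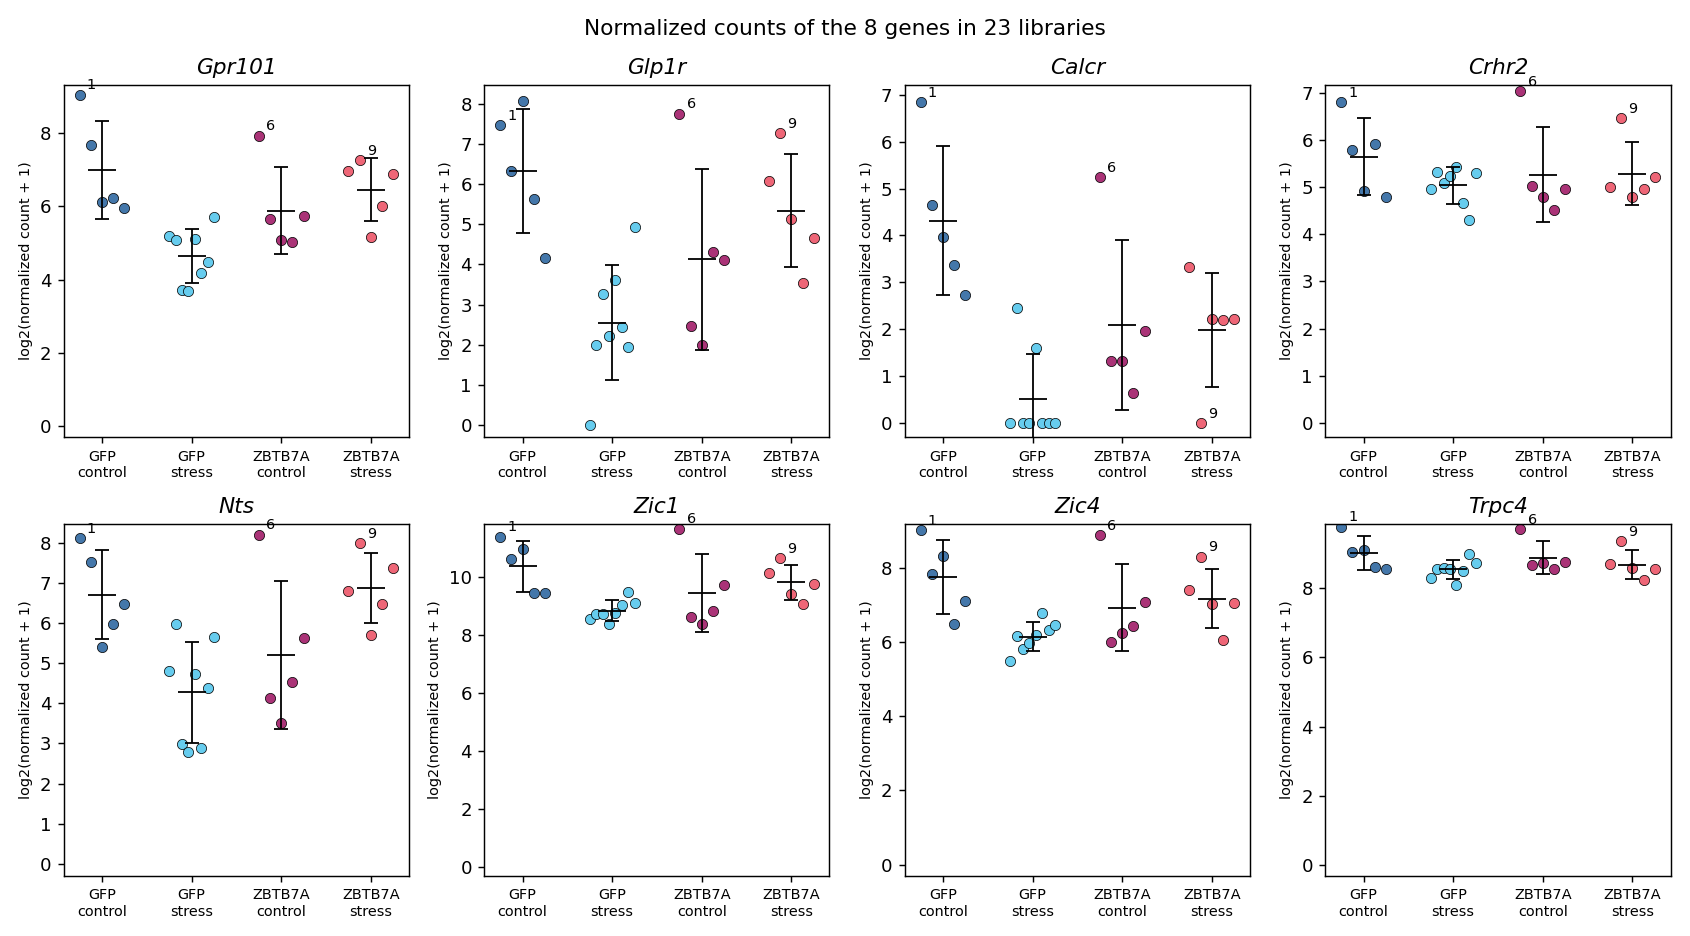
Level of each of the 8 genes in the 23 libraries, as log2(normalized count + 1), by group. Points are libraries, horizontal bars group means and whiskers SD, and GFP control 1, ZBTB7A control 6 and ZBTB7A stress 9 carry their numbers. The 8 GFP stress libraries of Gpr101 sit below all 5 GFP control libraries, and ZBTB7A control 6 lies far above the rest of its group.

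Among the receptors, Gpr101, an orphan receptor encoded on the X chromosome, had GFP groups that did not overlap. Its normalized counts in GFP control were 529 in library 1, 202 in library 2, 68.0 in library 10, 73.4 in library 11 and 60.7 in library 19. In GFP stress they ran from 11.9 through a median of 27.3 to 50.9. Every GFP stress library was thus below every GFP control library, although library 1 alone lay well above the other four. In ZBTB7A control the counts were 243 in library 6 and between 31.7 and 51.9 in the other four. The 5 ZBTB7A stress libraries had 124 (7), 153 (9), 34.9 (17), 64.0 (25) and 117 (26), and 4 of the 5 were above all 8 GFP stress libraries. The deepest library, GFP stress 12 with 51.9 M reads, had the lowest Gpr101 level of all, with 26 reads.

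Glp1r, the receptor of glucagon-like peptide, ranged from no read in one library to 268 normalized counts in another. GFP control held 176 in library 1, 79.9 in library 2, 268 in library 10, 48.7 in library 11 and 16.9 in library 19. GFP stress ran from 0 through a median of 4.05 to 29.3, and 7 of its 8 libraries were below all GFP control libraries. The groups overlapped through GFP stress 22, the library at 29.3, and GFP control 19. A count of 0 in GFP stress 3 allows up to 3 reads, or 5.03 normalized counts, and this limit covers counting error only. In ZBTB7A control library 6 stood at 215 and the other four between 2.98 and 18.9, while ZBTB7A stress held 67.2 (7), 153 (9), 34.0 (17), 10.7 (25) and 24.5 (26). These levels rest on few reads, 54 over all 8 GFP stress libraries against 654 over the 5 of GFP control.

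Calcr, the calcitonin receptor, was near the limit of detection in most libraries. It stood at 114 in GFP control 1, 24.2 in library 2, 14.7 in library 10, 9.28 in library 11 and 5.64 in library 19. Of the 8 GFP stress libraries 6 had no read at all, which allows between 1.37 and 5.21 normalized counts each, and the remaining ones had 2.04 and 4.51. The group totals were 238 reads in GFP control and 5 in GFP stress, and 181 of the 238 came from library 1. Calcr and Gpr101 were the 2 of the 8 genes whose GFP stress libraries all lay below GFP control. Of the 16385 genes tested 0.256% (42 genes) did so, with Gpr101 alone of the 7 tested members among them. Calcr was not tested, and its separation rested on 4 reads in GFP control 19 against 3 in GFP stress 4. Outside the GFP groups Calcr was at 36.7 in ZBTB7A control 6 and at 9.02 or less in the other 9 libraries labelled ZBTB7A.

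Crhr2, the receptor that binds urocortins, differed less. It was at 110.2 in GFP control 1, 129 in ZBTB7A control 6 and 87.3 in ZBTB7A stress 9, and at 59.5 or less in the other 20 libraries. Medians under GFP were 54.1 without and 34.8 with stress, those under ZBTB7A 30.0 and 31.1, and all groups overlapped. So the median was lowest in ZBTB7A control for this gene, not in GFP stress. The same held by a small margin for Nts, with medians of 22.2 in ZBTB7A control and 22.8 in GFP stress.

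Nts encodes the precursor of neurotensin, a peptide released by septal and striatal neurons. Its normalized counts in GFP control were 278 (1), 182 (2), 41.3 (10), 62.6 (11) and 88.9 (19), and in GFP stress they ran from 5.94 through 22.8 to 61.6. In ZBTB7A control library 6 had 295, the highest of all, and the other four had 10.4 to 48.4. ZBTB7A stress was the group with no low library, at 111 (7), 254 (9), 51.4 (17), 88.9 (25) and 166 (26). Of these 5 libraries 4 were above all GFP stress libraries, and 4 of the 5 ZBTB7A control libraries were below every ZBTB7A stress library. The groups still overlapped, through ZBTB7A control 6 in one case and through GFP stress 4 in the other.

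Zic1 and Zic4 encode zinc-finger transcription factors of the ZIC family, whose genes work in the development of the midline and the cerebellum. Zic1 was at 2698 (1), 1582 (2), 1997 (10), 710.5 (11) and 706 (19) in GFP control. GFP stress ran from 331 through 428 to 722, and 7 of its 8 libraries were below all of GFP control, the exception being library 21. ZBTB7A control held 3269.6 in library 6 and 335 to 843 in the other four, and ZBTB7A stress 1144 (7), 1626 (9), 692 (17), 539.7 (25) and 878 (26). Zic4 followed at a lower count: 516 (1), 227 (2), 319.8 (10), 88.9 (11) and 137 (19) in GFP control, and 43.6 through 71.5 to 109 in GFP stress. For Zic4, too, 7 of 8 GFP stress libraries were below GFP control, here with library 20 as the exception. In ZBTB7A control Zic4 was at 472 in library 6 and 63.2 to 134 in the other four, and in ZBTB7A stress at 65.8 to 315.

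The whole RefSeq spans of this pair share 138 bases, while the internal Zic4 start of the window shown lies 3204 bases from the start of Zic1. In GENCODE M21 their exons share 60 of the 5693 exon bases of Zic1, and the kit used does not keep strand, so reads in the shared stretch cannot be told apart. The ratio of Zic1 to Zic4 reads lay between 4.50 in ZBTB7A control 15 and 9.16 in GFP stress 21. It was 5.22 in GFP control 1 and 6.93 in ZBTB7A control 6, inside the range of the other libraries, so both genes were high there by a similar factor.

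Trpc4 encodes a calcium-permeable cation channel of the plasma membrane and was the steadiest of the 8. Its highest library was 3.19 times its lowest, against 44.5 times for Gpr101, 49.7 times for Nts, 9.88 times for Zic1 and 11.8 times for Zic4. It was at 866 in GFP control 1, 825 in ZBTB7A control 6 and 644 in ZBTB7A stress 9, and at 271 to 542 elsewhere. Its medians under GFP were 525 without and 370.1 with stress, and under ZBTB7A 421 and 375, with overlap between all groups.

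Per kilobase of exon (GENCODE M21), the median level over the 23 libraries was 122 normalized counts for Zic1, 48.2 for Trpc4, 39.6 for Nts, 9.41 for Gpr101, 8.60 for Zic4, 6.18 for Crhr2, 2.91 for Glp1r and 0.737 for Calcr. Ppp1r1b was at 3543 on the same scale. Differences between neighbours in this order, such as Trpc4 and Nts or Gpr101 and Zic4, were smaller than the range of either gene across libraries.

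The design asks whether the vector changes expression without or with stress, whether stress does so under each vector, and whether the vector's difference depends on stress. In a limma fit of log2(normalized count + 1) over all 23 libraries, 0 of 7 tested members passed a Benjamini-Hochberg adjusted p under 0.05 in any of the 5 comparisons. The background was the same, with 0% of 16385 genes passing in each. An unadjusted p under 0.05 was reached by 284 genes (1.73%) for the virus effect without stress, 2635 (16.1%) with stress, 1839 (11.2%) for stress under GFP, 272 (1.66%) for stress under ZBTB7A and 1216 (7.42%) for the interaction. These comparisons share their control groups, so their values are given side by side. In bulk tissue, fewer cells of a type and less RNA per cell cannot be told apart.

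For stress under GFP the fitted differences, as log2 fold change ± SE, were -2.35 ± 0.54 for Gpr101, -3.78 ± 0.89 for Glp1r, -2.43 ± 0.70 for Nts, -1.54 ± 0.44 for Zic1 and -1.60 ± 0.44 for Zic4. Each of these 5 had an adjusted p of 0.320 (limma). Gpr101 and Glp1r ranked 7th and 11th of all genes by p, and Ttr, at -5.37 ± 1.17, ranked 3rd. The remaining pair differed less, with -0.48 ± 0.21 for Trpc4 (adjusted p = 0.419) and -0.61 ± 0.38 for Crhr2 (adjusted p = 0.551). DESeq2 on the recovered reads called 39 genes (0.238%) in this comparison, 36 of them lower (0.220%), and Gpr101 (-2.80, adjusted p = 0.00882) and Glp1r (-3.91, adjusted p = 0.0285) were among these, while Zic4 missed the threshold at 0.0514 and Zic1 at 0.0658. edgeR called 0 genes. With no filter on low values limma put Calcr at -3.80 ± 0.73 (adjusted p = 0.321), a size that depends on the pseudocount because most GFP stress libraries had no read.

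With stress, the difference of libraries labelled ZBTB7A from GFP was upward: 1.82 ± 0.54 for Gpr101, 2.79 ± 0.89 for Glp1r, 2.60 ± 0.70 for Nts, 0.97 ± 0.44 for Zic1 and 1.02 ± 0.44 for Zic4, with adjusted p of 0.183, 0.194, 0.183, 0.285 and 0.274 (limma). On the linear scale the fit put Nts at 6.06 times its GFP stress level, with a 95% interval of 1.15 to 4.05 in log2. Trpc4 (0.14 ± 0.21) and Crhr2 (0.25 ± 0.38) were near 0. Ppp1r1b moved in the same direction, at 1.58 ± 0.61 (adjusted p = 0.246), while Ttr did not, at -1.23 ± 1.17. DESeq2 called 81 genes (0.495%) here and 0 of the 7 members.

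Without stress the same contrast pointed down: -1.11 ± 0.60 for Gpr101, -2.21 ± 0.99 for Glp1r, -1.50 ± 0.78 for Nts, -0.93 ± 0.48 for Zic1, -0.82 ± 0.49 for Zic4, -0.14 ± 0.24 for Trpc4 and -0.38 ± 0.42 for Crhr2, all at an adjusted p of 1.00. Stress under ZBTB7A gave 0.58 ± 0.60 for Gpr101, 1.22 ± 0.99 for Glp1r, 1.67 ± 0.78 for Nts and 0.37 ± 0.48 for Zic1, again at 1.00. In the same fit Zic4 was at 0.24 ± 0.49, Crhr2 at 0.02 ± 0.42 and Trpc4 at -0.20 ± 0.24. For stress under ZBTB7A DESeq2 called 1 gene (0.00611%), no member. No member separated its groups in either comparison, where 0.226% and 0.421% of genes did, nor between ZBTB7A stress and GFP stress, where 1.00% did.

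**Figure D2:**
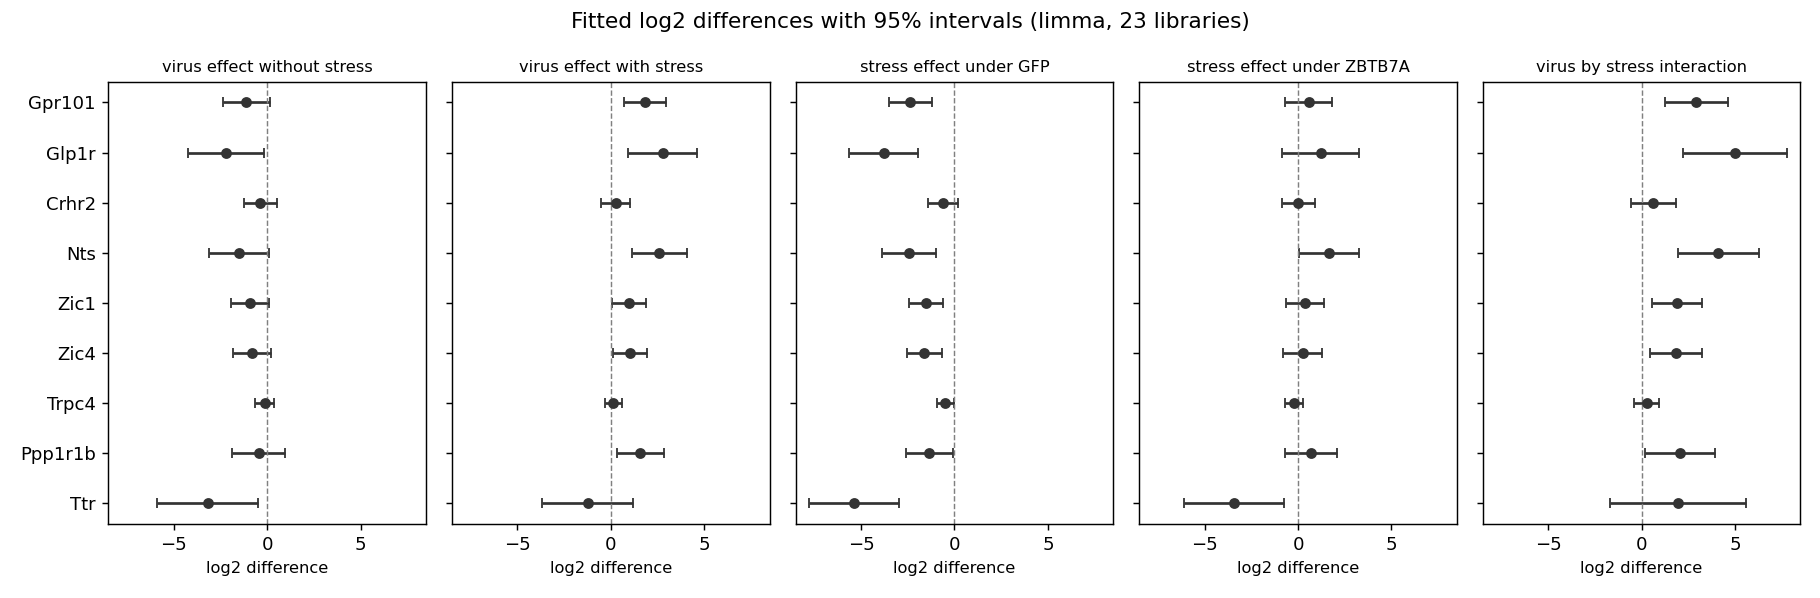
Fitted log2 differences (horizontal axis) of the 7 tested genes, Ppp1r1b and Ttr in the 5 comparisons, from limma on log2(normalized count + 1). Points are estimates and bars 95% intervals. Gpr101, Glp1r, Nts, Zic1 and Zic4 lie left of 0 for stress under GFP and right of 0 for the virus effect with stress and for the interaction, and the intervals of Trpc4 and Crhr2 span 0 in the virus and interaction panels.

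The interaction, the virus difference with stress minus that without, was 2.93 ± 0.81 for Gpr101, 5.0 ± 1.33 for Glp1r, 4.10 ± 1.05 for Nts, 1.91 ± 0.65 for Zic1 and 1.85 ± 0.66 for Zic4, each with an adjusted p of 0.668 (limma). It was 0.28 ± 0.32 for Trpc4 and 0.63 ± 0.57 for Crhr2. Nts, Glp1r and Gpr101 ranked 12th, 16th and 30th of 16385 genes by p, and Glp1r had the largest positive estimate of all genes tested. DESeq2 called 3 genes for the interaction (0.0183%), none of them a member. One library decided the call. Without ZBTB7A control 6 the interaction passed for 82 genes (0.502% of 16338), 72 of them positive (0.441%), and for 4 of the 7 members: Nts at 4.85 ± 0.90 (adjusted p = 0.0378), Glp1r at 5.90 ± 1.17 (0.0404), Zic1 at 2.46 ± 0.50 (0.0404) and Gpr101 at 3.44 ± 0.74 (0.0478). Zic4 was then at 2.34 ± 0.56 (0.0592). Over the fits that left out each library in turn the adjusted p of Nts had a median of 0.732 and a highest value of 0.965. Without GFP control 1, ZBTB7A control 6 and ZBTB7A stress 9 together, a choice made after their levels were seen, the estimates were 2.72 for Gpr101, 5.14 for Glp1r, 4.22 for Nts and 2.0 for Zic1, each with an adjusted p of 0.175.

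With Ppp1r1b or Ttr as a covariate many differences were smaller. With Ppp1r1b, the virus effect with stress went from 2.60 to 1.39 for Nts, from 1.82 to 1.07 for Gpr101 and from 2.79 to 1.90 for Glp1r, and the interaction of Nts from 4.10 to 2.54. With Ppp1r1b, stress under GFP gave -1.71 for Gpr101, -1.40 for Nts and -1.23 for Zic1. With Ttr, stress under GFP went from -1.54 to -0.63 for Zic1, from -1.60 to -1.0 for Zic4 and from -0.48 to -0.05 for Trpc4, whereas the virus effect with stress was 2.75 for Nts and 1.94 for Gpr101. No member passed the threshold in these fits either.

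Group differences were also taken within the 3 runs of title numbers, without a test. For stress under GFP 8, 8 and 7 of the 8 genes were below 0 in runs 1, 2 and 3, and the exception in run 3 was small, at 0.18. The virus effect with stress was above 0 for 8, 7 and 7. GFP control had a single library in run 3, number 19, and ZBTB7A stress a single library in run 2, number 17. The genes vary together within a library, so these counts are not separate observations. Stress under ZBTB7A was below 0 for all 8 in run 1, where the single ZBTB7A control library is number 6, and above 0 for 5 of 8 in each of the other runs. The virus effect without stress was above 0 for 6 of 8 in run 1, 0 of 8 in run 2 and 2 of 8 in run 3, so the latter 2 comparisons changed direction between runs.

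Across libraries the genes varied together. GFP control 1 and ZBTB7A control 6 were each among the 3 highest libraries for all 8 genes, GFP control 2 was among the 5 highest for all 8, and ZBTB7A stress 9 for 7. The exception was Calcr, with no read in ZBTB7A stress 9. GFP control 10 was the highest of all for Glp1r and 17th for Crhr2.

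The 28 pairs of these genes had a median Pearson r of 0.726 on the log2 scale over the 23 libraries (range 0.551 to 0.960) and a median Spearman rho of 0.665. After group means were subtracted the median r was 0.655, so the relation was present within groups. Without the 2 libraries farthest from the median of the gene taken first in each pair, it was 0.673. For pairs with Glp1r first these were GFP stress 3 and GFP control 10, and with Nts first GFP stress 12 and GFP stress 20. Such pairs kept GFP control 1 and ZBTB7A control 6, so 0.673 does not show the relation without those extreme libraries. Within runs the median r was 0.860, 0.630 and 0.413. The libraries share their scaling and the dissection, so these are descriptions of 1 set of samples. The closest pair was Zic1 and Zic4, with r of 0.960 and rho of 0.915, followed by Gpr101 and Nts, with 0.915 and 0.914. The weakest Pearson value was that of Nts and Trpc4, 0.551, and the weakest rank correlation that of Zic4 and Crhr2, 0.249. Several relations of Crhr2 and Trpc4 rested on the extreme libraries: without GFP control 1 and ZBTB7A control 6, r fell from 0.691 to 0.310 for Trpc4 with Crhr2 and from 0.566 to 0.131 for Trpc4 with Calcr.

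With Ppp1r1b the 8 genes had a median r of 0.524, from 0.211 for Trpc4 to 0.763 for Nts. Gpr101 was at 0.677 with Ppp1r1b, and at 0.831 without GFP control 1 and ZBTB7A control 6. GFP control 1 combined the highest Gpr101 level with a Ppp1r1b count of 6663, below the median of 10375. With Ttr the median r was 0.432, from 0.236 for Crhr2 to 0.583 for Calcr, and in run 3 it was -0.04. Ttr and Nts parted in ZBTB7A stress, where Ttr was at 4.45 to 27.1 normalized counts in all 5 libraries while Nts was at 51.4 to 254. Not every gene did so, and Calcr was at 0 to 9.02 there. Crhr2 and Trpc4 had medians of 31.1 and 375 in that group, against 31.6 and 387 over all libraries. Ttr and the 8 genes were high together in GFP control 1, with Ttr at 7567. In GFP control 10 Ttr was at 4890.3 and Glp1r at its highest level, and 5 of the 8 genes had this library among their 5 highest. Nts and Crhr2 were at 41.3 and 29.3 in it, below their medians of 49.4 and 31.6 over the 23 libraries. After group means were subtracted the median r was 0.348 with Ppp1r1b and 0.242 with Ttr.

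**Figure D3:**
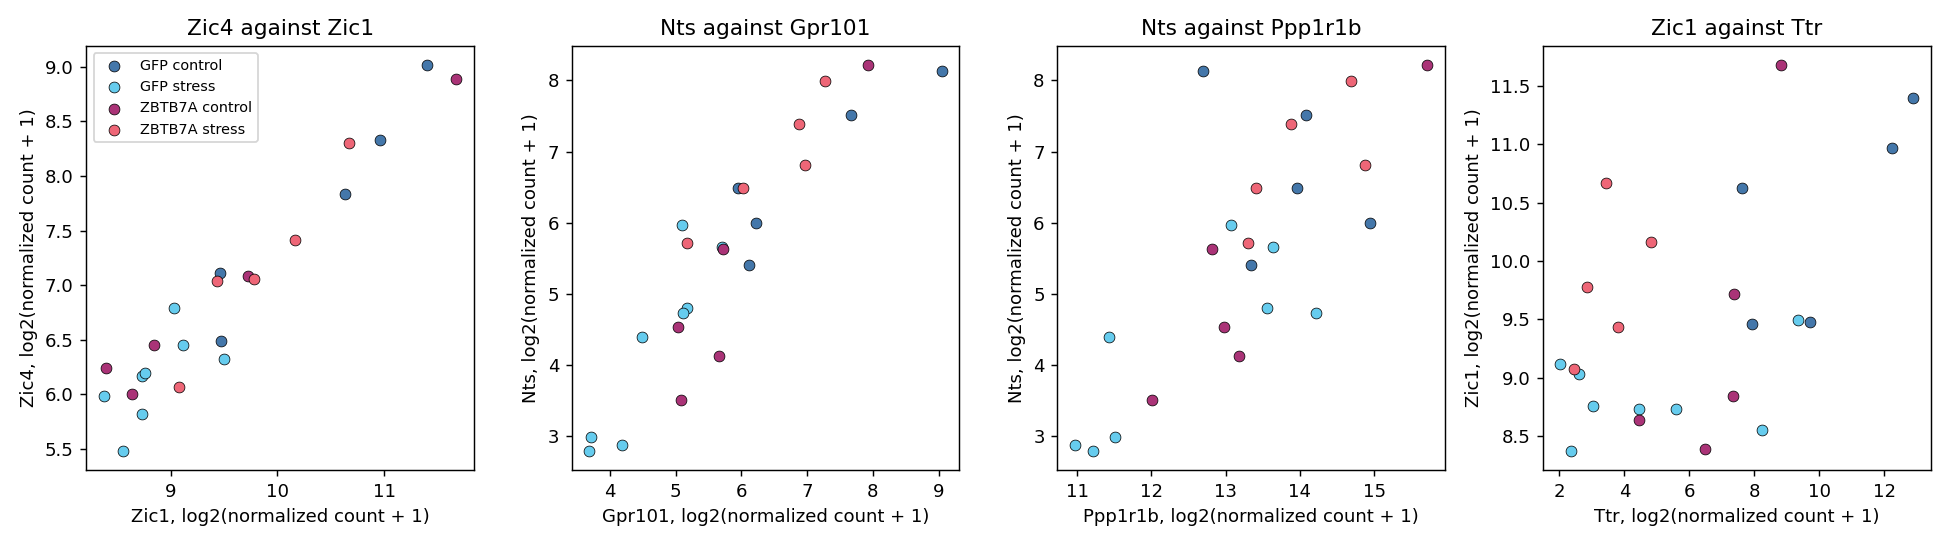
Levels of 4 pairs of genes in the 23 libraries, as log2(normalized count + 1) on both axes, with libraries coloured by group. Zic4 against Zic1 (r = 0.960) and Nts against Gpr101 (0.915) form narrow bands, Nts against Ppp1r1b (0.763) is looser with GFP control 1 at the upper left, and in Zic1 against Ttr (0.531) all 5 ZBTB7A stress libraries lie at low Ttr.

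Of 13418 genes whose mean was at least 50 normalized counts, those most like each member were taken by Spearman rho over the 23 libraries. For Nts they were Gad2 (0.968), Six3os1 (0.951) and Isl1 (0.947), where Gad2 encodes an enzyme that makes the inhibitory transmitter GABA. For Gpr101 they were Tacr3 (0.945), Isl1 (0.943) and Ano2 (0.936), so Isl1 was close to both. Those of Glp1r included Zfp521 (0.920) and Prdm12 (0.913). Those of Zic1 included Tmem255a (0.912) and Sox1ot (0.897), and those of Zic4 Sox1ot (0.864) and Bbx (0.855), so Sox1ot was among the 3 most alike for both ZIC genes. Trpc4 was closest to Dgkg (0.864), 6820408C15Rik (0.853) and Ctbs (0.779). The likeness was weaker for Calcr, with Efcab12 (0.819), Clic6 (0.757) and Vps35l (0.747), and for Crhr2, with Itgb3bp and Slc37a1 (0.736 each) and Hdac11 (0.728).

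Of the other genes of the pathways 0 passed the limma threshold in any comparison. Of 17 ligands and binding partners 11 were tested, and their median difference for stress under GFP was 0.06, where all genes tested had -0.01 and the 7 members -1.60. Smallest p values were those of Crh, the stress peptide of the corticotropin axis (-0.63 for the virus effect with stress), Dpp4, a peptidase that cleaves glucagon-like peptide (-0.58 there), and Ramp1, a partner of calcitonin-family receptors (0.19 for stress under ZBTB7A). The genes of the peptides Gcg, Ucn, Ucn2, Ucn3, Calcb and Iapp did not reach the filter, so most ligands of the 3 secretin-family receptors were not tested. Of 12 other receptors of that family 10 were tested, with a median of -0.02 for stress under GFP, with Crhr1 at -0.57 for the virus effect with stress and Adcyap1r1 at -0.17 and Vipr1 at 0.35 for stress under GFP. The 24 genes of cyclic AMP signalling had a median of 0.05 for stress under GFP and -0.06 for the virus effect with stress. Within that list the smallest p belonged to Pde4b (0.21 ± 0.05), Gnal (0.70 ± 0.19) and Pde10a (1.74 ± 0.51) for the virus effect with stress, each with an adjusted p of 0.183. Gnal and Pde10a are abundant in medium spiny neurons.

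Among genes related to Zic1 and Zic4, Zic2 had -0.91 ± 0.32 and Zic5 -0.88 ± 0.28 for stress under GFP, at adjusted p of 0.350 and 0.326 (limma), where the median of all genes tested was -0.01. Zic5 was at 46.4 to 112 normalized counts in GFP control and at 30.1 to 41.5 in GFP stress, so these groups did not overlap. Of the 16385 genes tested, 0.256% likewise had every GFP stress library below all of GFP control. For the 6 other TRPC channels the median was -0.09 for stress under GFP and -0.02 for the virus effect with stress, and the smallest p values were those of Trpc7 (0.62 for the virus effect with stress), Trpc1 (-0.12 for stress under ZBTB7A) and Trpc6 (-0.53 for the interaction).

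Several marker lists of neighbouring tissue varied with the 8 genes across libraries and others did not, and their part in the differences was not tested. The level of a list was taken per library as its genes' average log2 value, each gene centred over the 23 libraries. The level of 9 other septal genes, which include the receptors Avpr1a, Prlr and Tacr1, had a median rho of 0.818 with the 8 members (0.554 for Crhr2 to 0.913 for Zic1). Its mean ± SD under GFP was 0.54 ± 0.45 without stress (n = 5) and -0.43 ± 0.26 with it (n = 8), and under ZBTB7A -0.14 ± 0.71 and 0.28 ± 0.34 (n = 5 each). Of the 9 genes, 8 were below 0 for stress under GFP (median -1.06), and 6 were above and 3 below 0 for the virus effect with stress (median 0.35). The list was not uniform in the libraries where the 8 members were high. In GFP control 1 and ZBTB7A control 6 Avpr1a, the vasopressin receptor of the lateral septum, was at 53.5 and 61.2 normalized counts, against 28 or less in the other 21 libraries. Prlr, the prolactin receptor, which choroid plexus also expresses, was at 428 and 138 there and had -2.55 ± 0.71 for stress under GFP (limma, adjusted p = 0.320). Other genes of the list were low in ZBTB7A control 6. Esr1, an oestrogen receptor, was at 24.5 and Sst, the somatostatin precursor, at 3446 there, each the lowest of the 23 libraries, and Oxtr, the oxytocin receptor, was at 149, among the 3 lowest.

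The 7 cholinergic and medial septal markers had a median rho of 0.617 with the members, and all 7 were below 0 for stress under GFP (median -2.21) and above 0 for the virus effect with stress (2.19). Their summed level under GFP was 195 to 1053 normalized counts without stress and 37.3 to 380.5 with it, and under ZBTB7A 77.4 to 1876 and 267 to 1270.5. The 15 striatal markers, Ppp1r1b among them, gave a median rho of 0.555, from 0.162 for Trpc4 to 0.855 for Nts, with summed levels of 29077 to 76350.1, 9695 to 60915, 18285 to 160602 and 40387 to 106568 in the same order. All 15 were below 0 for stress under GFP and above 0 for the virus effect with stress. Of 13 choroid plexus and ependymal markers 12 were tested, Ttr among them, and their level had a median rho of 0.705, from 0.197 for Crhr2 to 0.777 for Zic1 and Zic4. Summed, they were at 1153 to 9957 without and 299 to 1185 with stress under GFP, and at 555 to 2637 and 684 to 1605 under ZBTB7A. Their median difference for stress under GFP was -2.14, with 11 of 12 below 0, and for the virus effect with stress 1.01, with 9 of 12 above 0 and Ttr among the 3 below. No marker of these lists was at 0 in all libraries.

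Markers of the cortex ran the other way. The 10 cortical excitatory markers had a median rho of -0.683 with the members, from -0.413 for Trpc4 to -0.865 for Nts, and all 10 were above 0 for stress under GFP (median 0.36) and below 0 for the virus effect with stress (median -0.48). Summed, they came to 55059 to 131279 normalized counts without and 98542 to 131873 with stress under GFP, and to 46771 to 108584 and 63268 to 96256 under ZBTB7A. In this sum no ZBTB7A stress library reached the lowest GFP stress library. On the list level, the average of centred log2 values, these groups overlapped, at -0.594 to 0.057 in ZBTB7A stress and 0.026 to 0.551 in GFP stress. Thalamic markers, unlike the cortical ones, had a positive median rho, 0.769. Of these 6 markers 5 were below 0 for stress under GFP (median -0.54), and 4 were above 0 for the virus effect with stress (median 0.16). The median rho was 0.326 for astrocyte markers and -0.166 for meningeal fibroblast markers. The 3 of 10 hypothalamic and preoptic markers that were tested had a median rho of -0.176, negative for all 8 members, and a median difference of 0.46 for stress under GFP. The 7 olfactory bulb and neuroblast markers had a median rho of -0.042 and a median difference of 0.76, with 4 of 7 above 0. Across the 8 genes Gfap, the astrocyte gene whose promoter drives the vectors, had a median r of 0.386.

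**Figure D4:**
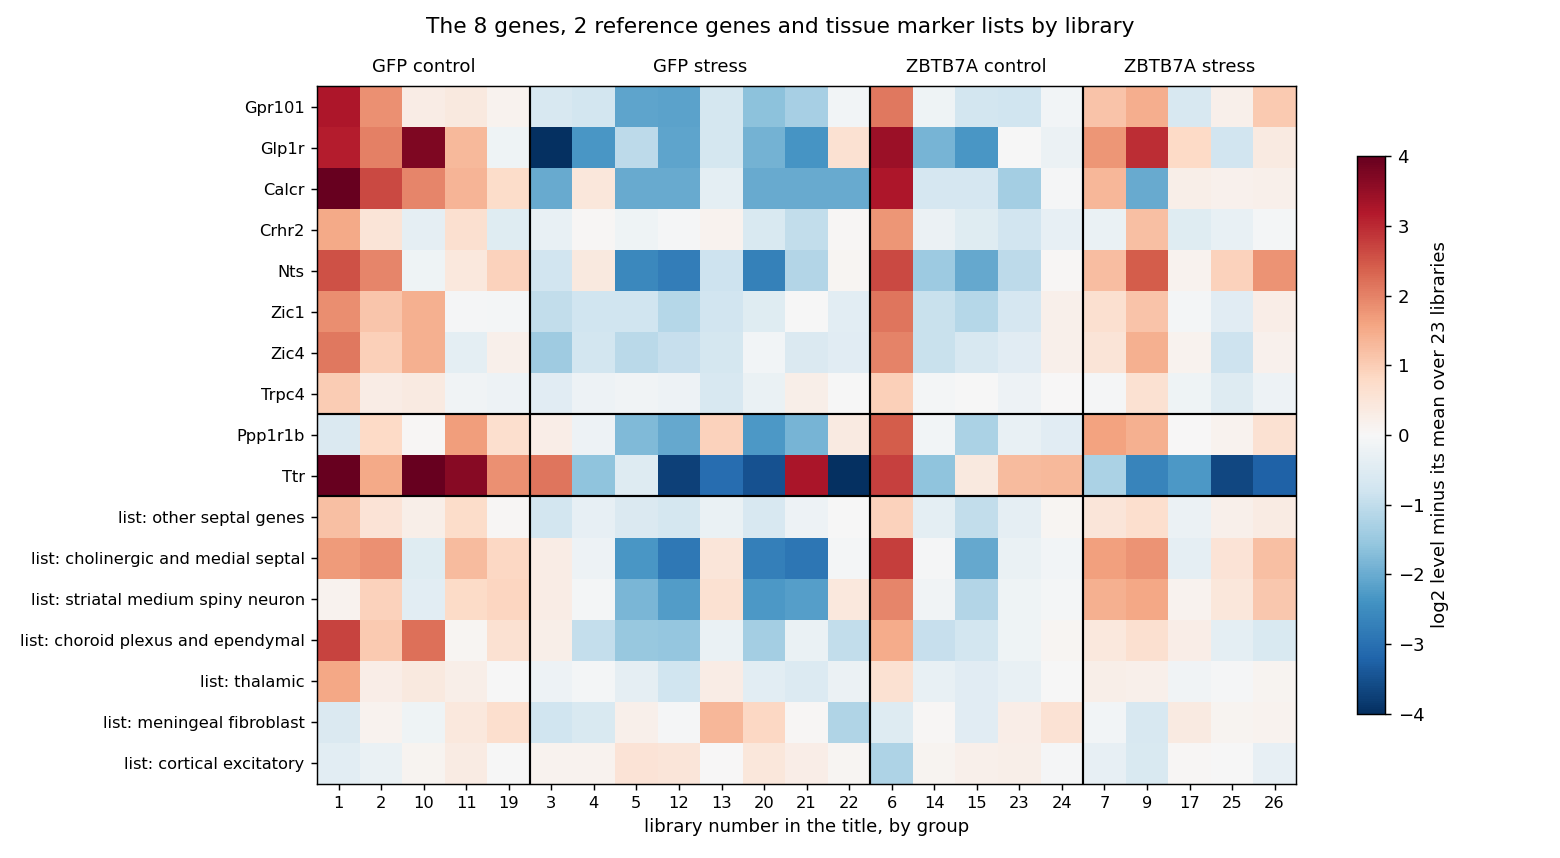
Log2 level in each library minus its mean over the 23 libraries (colour, from -4 in blue to 4 in red), for the 8 genes, Ppp1r1b and Ttr, and 7 marker lists. Columns are libraries by group and title number. GFP control 1 and ZBTB7A control 6 are red for all 8 genes, and the GFP stress columns are mostly blue for them. Cortical excitatory markers are palest blue to blue in GFP control 1 and ZBTB7A control 6, and palest red in GFP control 10 and GFP control 11.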

How the data were processed

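Polyadenylated RNA of 23 OFC libraries was sequenced after Trizol extraction and TruSeq RNA v2 preparation, per the labels' protocols. Per the submitters' processing notes, the tools were DESeq2 2.11.40.6, HISAT2 2.1.0 and featureCounts 2.0.1, and mm9 and mm10 are both listed as builds. The authors deposited a signal per gene, read counts divided by 1 factor per library, with no length correction. All values (100%) were whole multiples of 1 read within 0.02 reads, so reads were recovered. Of 27606 entries 428 identical repeats were removed.

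The 16385 genes that reached 10 normalized counts in 5 libraries were tested with limma 3.58.1 (R 4.3.3) on log2(normalized count + 1), 4 group means, trended and robust, two-sided, with Benjamini-Hochberg adjustment at 0.05. A fold change on this scale understates low genes. edgeR 4.0.16 and DESeq2 1.42.0 on the recovered counts were alternatives, beside other pseudocounts, filters, scaling, covariates and left-out libraries. The fit was also run on simulated counts with the same dispersion for every gene and no outlying library. That setting differs from these data, so it does not show how the fit behaves on them. Tables and figures used Python 3.11.15, pandas 2.3.3, numpy 2.4.6 and matplotlib 3.10.9.

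The members, gene lists and tests were chosen with earlier results of these data known. Named genes were the 8 members, Ppp1r1b, Ttr, Zbtb7a, the 3 genes of highest Spearman rho to each member (mean of 50 or more), and in each pathway list and the list of other septal genes those past the threshold or otherwise the 3 of smallest p. Marker genes outside this rule, among them Slc17a7, Avpr1a, Esr1, Sst, Oxtr and Gfap, were named after their values were seen. Sequences are from RefSeq promoter windows (GRCm38.p6), and exon lengths from GENCODE M21. Calcr entered a test only without the filter. Some genes that the rule names, and the summary of the list of ZIC and GLI factors, are not reported here.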

Additional observations from a re-analysis of the deposited data

Results flagged for a closer look

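In 5 of 32 sets of a member's values in 1 group, the highest library lay further from its nearest neighbour than Dixon's criterion allows. Chance gives about 1 in 20 for independent sets, but the genes vary together and 4 of the 5 sets concern the same library, so nothing is read from the number. In ZBTB7A control library 6 was set apart for Gpr101 at 243, Trpc4 at 825, Crhr2 at 129 and Calcr at 36.7 normalized counts. In ZBTB7A stress library 9 was set apart for Crhr2 at 87.3. ZBTB7A control 6 also had the lowest Slc17a7 count, 10938, and the highest Ppp1r1b count, 53879, of all libraries, and their part in these values was not tested.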

How the results depend on the processing

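No paired analysis was possible because the groups share no title number. Of 1178 member values under the alternatives 1148 kept their direction and side of the threshold, 24 changed sign and 6 newly passed. All sign changes concerned differences whose 95% interval spanned 0. For the virus effect without stress Trpc4 was at 0.12 with Ttr as a covariate, and -0.34 to 0.050 with each library left out. For the virus effect with stress Crhr2 was at -0.25 with Ppp1r1b as a covariate, and without 3 high libraries (chosen after seeing the data) Trpc4 was at -0.027 and Crhr2 at -0.044. Leaving out single libraries gave -0.027 to 0.25 and -0.044 to 0.38. For stress under ZBTB7A edgeR and DESeq2 gave -0.11 and -0.12 for Zic1, -0.022 and -0.032 for Zic4, and -0.17 and -0.18 for Crhr2. Crhr2 was at -0.12 with number run and -0.20 with Ppp1r1b as a covariate, and Trpc4 at 0.070 with Ttr. Left-out libraries gave -0.039 to 0.73 for Zic4, -0.37 to 0.0021 for Trpc4 and -0.27 to 0.47 for Crhr2. For the interaction Crhr2 was at -0.019 with Ppp1r1b as a covariate. The cause was not tested.

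Against 0 genes passing in limma, DESeq2 called 81 genes for the virus effect with stress, 39 for stress under GFP (2 members), 1 for stress under ZBTB7A and 3 for the interaction, and edgeR 0. For the virus effect with stress limma called 1 gene with Ppp1r1b as a covariate and 2 with only the groups compared, and 0 to 3 with a library left out (3 without GFP stress 13). Left-out libraries gave 0 to 82 genes and 0 to 4 members for the interaction, the upper values without ZBTB7A control 6. The median r of the 28 pairs was 0.860 in run 1 and 0.413 in run 3. With Ppp1r1b it was 0.348 after subtracting group means. With Ttr it was 0.242 after subtracting group means, 0.293 without the 2 farthest libraries, 0.753 in run 2 and -0.045 in run 3.

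Depth limits Calcr and Glp1r most, with 5 and 54 reads over the 8 GFP stress libraries.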

Other observations

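Cartpt, which encodes the CART neuropeptide and is one of the 9 other septal genes, had the smallest p of that list. Under GFP it was at 232 ± 47.5 normalized counts without stress (SD, n = 5) and 133 ± 53.4 with it (n = 8), and under ZBTB7A at 125 ± 44.9 and 352 ± 104 (n = 5 each). All 5 ZBTB7A stress libraries, from 200.2 to 465.9, were above the 5 ZBTB7A control libraries, of which the highest was at 192. Of the 16385 genes tested, 0.421% had groups that did not overlap in this comparison, in either direction. The interaction of Cartpt was 2.38 ± 0.40 (limma, adjusted p = 0.0976), which did not pass. ZBTB7A control 6, the library at 192, was thus below all ZBTB7A stress libraries, whereas for Gpr101 and Nts it was above them. Tacr1, a tachykinin receptor, had 1.36 ± 0.42 for the virus effect with stress (adjusted p = 0.183), with its highest count, 546, in ZBTB7A control 6.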
